A study of Mus musculus with 12 samples.

Results

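The genes described here are the brain patterning homeobox genes of 11 families, Lhx, Dlx, Emx, Otx, Pax, the sine oculis group (such as Six3), Irx, Msx, Gsx, Meis and Pbx, as they appear in peak lists of acetylated histone H4 lysine 8 (H4K8ac). Members were chosen by symbol alone: a family name followed by a number. RefSeq holds 51 such mouse genes, and 31 of them had at least 1 peak assigned in at least 1 list, of 23433 genes with an assigned peak in all. Those 31 genes held 205 of the 269580 peaks. The cells were oligodendrocyte progenitor cells (OPCs), the dividing glia that make myelin-forming oligodendrocytes, taken by fluorescence sorting from the forebrain of mice in which Pdgfra, a gene of OPCs, drives a nuclear green fluorescent protein (the Pdgfrα H2B-EGFP genotype). All animals carried this reporter, and the ages were postnatal day 5 (neonatal) and postnatal day 60 (adult), with 3 biological replicates each. Chromatin was precipitated with 1 antibody (Active Motif 61103). The labels do not say how many animals went into a replicate, and the 6 input libraries were not analysed here. The reporter marks cells with Pdgfra activity or its lasting protein, so a sorted population can hold cells that have begun to differentiate.

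Homeobox genes of these families encode transcription factors that give a stretch of the developing neural tube its regional identity. Emx, Otx, Dlx, Gsx and several Lhx genes act in the forebrain, while Irx, Msx, most Pax genes and other Lhx genes act further back or in the cord. Meis and Pbx proteins are TALE-class cofactors that bind DNA with many other homeodomain proteins and are not limited to a region. H4K8ac is an acetylation of the histone H4 tail that is found at active promoters and enhancers. From textbook expression domains, 17 members were classed as forebrain, 16 as hindbrain or cord, 11 as mainly of other tissues and 7 (the Meis and Pbx genes) as broad cofactors.

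Most members have promoters rich in CpG dinucleotides, whether or not a peak was found there, and 5 promoters with different patterns are printed to show it. They are the 250 bases before the start in RefSeq (GRCm38.p6), 5′ to 3′ on the gene's strand, with each CG in capitals. Pbx2 had a promoter peak in all 6 libraries, Six5 in all adult libraries and neonatal replicate 2, Gsx1 in all neonatal and 2 adult libraries, Irx3 in the adult libraries alone, and Six6 in none.
Pbx2, chr17:34592009-34592258, plus strand: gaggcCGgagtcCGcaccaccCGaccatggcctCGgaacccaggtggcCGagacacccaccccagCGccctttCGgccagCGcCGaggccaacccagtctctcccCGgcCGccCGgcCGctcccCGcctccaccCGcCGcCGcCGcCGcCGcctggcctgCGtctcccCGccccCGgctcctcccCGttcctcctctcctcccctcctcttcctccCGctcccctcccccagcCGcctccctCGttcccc
Six5, chr7:19094294-19094543, plus strand: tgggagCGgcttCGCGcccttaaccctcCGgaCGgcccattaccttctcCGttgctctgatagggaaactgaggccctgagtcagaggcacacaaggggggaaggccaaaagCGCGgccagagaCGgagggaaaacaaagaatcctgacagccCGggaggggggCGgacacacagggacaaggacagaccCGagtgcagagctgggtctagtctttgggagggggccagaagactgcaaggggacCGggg
Gsx1, chr5:147188446-147188695, plus strand: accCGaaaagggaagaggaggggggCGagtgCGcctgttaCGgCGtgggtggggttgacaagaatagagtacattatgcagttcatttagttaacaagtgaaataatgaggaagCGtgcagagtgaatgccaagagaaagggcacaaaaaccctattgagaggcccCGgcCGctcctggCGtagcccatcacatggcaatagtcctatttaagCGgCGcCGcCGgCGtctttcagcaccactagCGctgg
Irx3, chr8:91801655-91801904, minus strand: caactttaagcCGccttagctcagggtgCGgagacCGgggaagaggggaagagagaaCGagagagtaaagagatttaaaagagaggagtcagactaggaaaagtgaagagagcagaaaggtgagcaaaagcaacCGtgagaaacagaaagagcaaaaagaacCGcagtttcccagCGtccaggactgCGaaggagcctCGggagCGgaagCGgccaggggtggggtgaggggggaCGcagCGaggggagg
Six6, chr12:72939632-72939881, plus strand: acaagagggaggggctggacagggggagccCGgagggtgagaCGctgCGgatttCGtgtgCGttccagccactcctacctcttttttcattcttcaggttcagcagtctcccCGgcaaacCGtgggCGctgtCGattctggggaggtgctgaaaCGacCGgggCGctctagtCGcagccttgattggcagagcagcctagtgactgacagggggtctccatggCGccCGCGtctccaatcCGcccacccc
The windows held 27 CpGs in Pbx2, 13 in Six5, 15 in Gsx1, 13 in Irx3 and 17 in Six6, so the promoter with no peak was within the range of those with peaks. A peak overlapped the printed window itself in 5 libraries for Pbx2, in the 3 adult libraries for Six5, in neonatal replicate 1 for Gsx1, in adult replicate 1 for Irx3 and in none for Six6. The other peaks counted for these genes lay elsewhere within 3000 bp of a start. Over the 300-base windows of RefSeq (250 before and 50 after the start; 48 windows of 37 members), the median ratio of observed to expected CpG was 0.734. It was 0.748 for members with a promoter peak in any library and 0.684 for those without. All 32851 promoter windows had a median of 0.384, those of genes with a promoter peak 0.714, and those of genes without one 0.22. The members without a promoter peak thus had a CpG ratio near that of other genes with peaks. The homeodomain motif TAATTA, which reads the same on both strands, was found in 4 of the members' 48 windows (8.33%) and in 5.29% of all windows. Otx2 held it in more than 1 of its windows, so the members' share rests on few genes.

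The H4K8ac lists differ widely in length. Replicates 1, 2 and 3 gave 9097, 31189 and 7353 peaks at the neonatal age and 72278, 72661 and 77002 at the adult age, so neonatal replicate 2 stood apart from the other neonatal libraries. Read totals were not used here, and depth is therefore known only through the lists. Promoter peaks at the OPC markers Pdgfra, Cspg4, Sox10, Olig1 and Olig2 were found in all 6 libraries, the label's own cell type. In all, 10, 10 and 7 of 10 OPC markers had a promoter peak in the neonatal libraries and 10, 8 and 9 in the adult. Of 8 oligodendrocyte markers, 2, 3 and 1 had one in the neonatal libraries and all 8 in each adult library, with summed folds of 4.31 to 17.3 in neonatal and 88.3 to 114 in adult libraries. Mog, Mag, Mobp and Opalin had none in any neonatal library. Markers of some other cells also had a promoter peak more often, on average, in adult libraries. The counts were 1, 3 and 0 against 3, 3 and 3 of 8 for excitatory neurons. They were 0, 1 and 0 against 2, 2 and 2 of 8 for endothelial or mural cells, and 0, 0 and 0 against 1, 1 and 1 of 8 for microglia (Cx3cr1). The share of all protein-coding genes rose too, from 23.2% to 52.6% in neonatal libraries to 53.8% to 55.6% in adult ones. Markers of neuroblasts and interneurons went the other way on average, with 0, 3 and 1 against 2, 0 and 0 of 9. Astrocyte markers gave 3, 6 and 1 against 5, 3 and 6 of 8, with overlap. Every age difference over the full lists therefore comes with higher counts of oligodendrocyte markers and with longer lists, whose part in it was not tested. In sorted populations, fewer cells carrying the mark and less mark per cell cannot be told apart.

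In every library a smaller share of the patterning genes than of all protein-coding genes had a promoter H4K8ac peak, and the 4 members with one in all 6 libraries were cofactors. A promoter peak is one that the authors' annotation places within 3000 bp of a transcription start. Among the 51 members, 7, 23 and 5 had a promoter peak in the neonatal libraries (replicates 1, 2 and 3, in this order throughout), and 22, 14 and 14 did in the adult ones. As shares of the members these were 13.7%, 45.1% and 9.8% in neonatal and 43.1%, 27.5% and 27.5% in adult libraries. Over 21900 protein-coding genes of RefSeq the shares were 26%, 52.6% and 23.2% in neonatal and 55.6%, 53.8% and 54.6% in adult libraries. The members lay below this level in each of the 6 libraries. The mean number of members was 11.7 ± 9.87 (SD, n = 3) at the neonatal and 16.7 ± 4.62 (SD, n = 3) at the adult age. The difference of 5 is smaller than the spread of the neonatal libraries. Without neonatal replicate 2 the difference was 10.7.

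**Figure D1:**
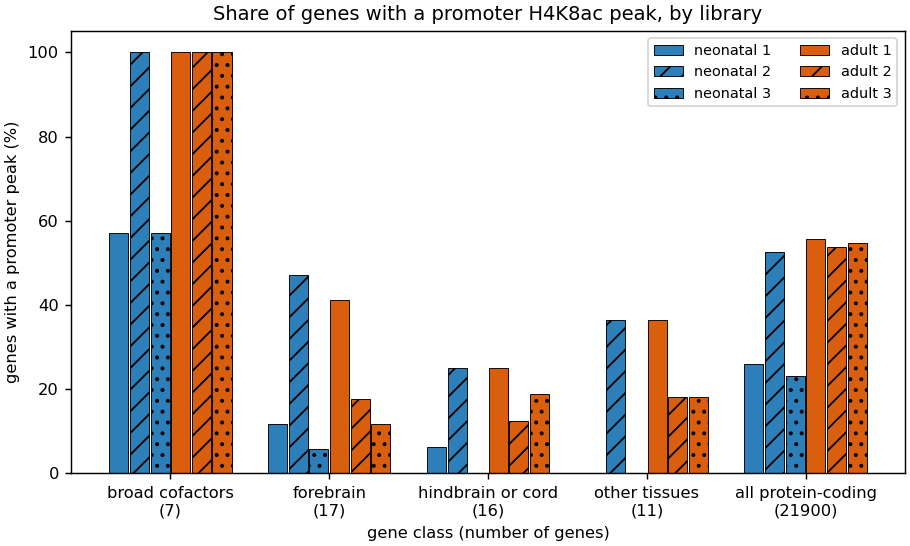
Percentage of genes with a promoter H4K8ac peak (vertical axis) in each class of patterning genes and over 21900 protein-coding genes, one bar per library, neonatal in blue and adult in orange. The cofactor bars reach 100% in 4 libraries, while the other 3 classes stay below the protein-coding bars of the same library.

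The cofactors stood high. Of the 7, 4, 7 and 4 had a promoter peak in the neonatal libraries and 7, 7 and 7 in the adult. Meis1, Meis3, Pbx2 and Pbx3 had one in all 6 libraries, and Meis2 and Pbx4 in all adult libraries and neonatal replicate 2. The share of all genes with a promoter peak in all 6 libraries was not computed. Of the 44 members outside this class, 3, 16 and 1 had a promoter peak in the neonatal and 15, 7 and 7 in the adult libraries. These counts were highest in neonatal replicate 2 and adult replicate 1, the same libraries in which 3 and 2 of 9 markers of neuroblasts and interneurons had a promoter peak (Gad1 and Gad2 among the former, and Gad1 and Sp9). The other 4 libraries had 0, 1, 0 and 0 of them. The summed fold of these markers was 0, 12.8 and 3.18 in the neonatal and 6.89, 0 and 0 in the adult libraries, and Dcx, Slc32a1, Sst and Npy had no promoter peak in any library. Astrocyte markers were also high in neonatal replicate 2 (6 of 8) and adult replicate 1 (5 of 8), and in adult replicate 3 (6 of 8). The part of such cells in the members' counts was not tested.

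Of the 17 forebrain genes, 2, 8 and 1 had a promoter peak in the neonatal libraries and 7, 3 and 2 in the adult, with means of 3.67 ± 3.79 and 4 ± 2.65 (SD, n = 3 each). Of the 16 hindbrain or cord genes, 1, 4 and 0 had one in the neonatal and 4, 2 and 3 in the adult libraries, with means of 1.67 ± 2.08 and 3 ± 1 (SD, n = 3 each). The ages overlapped in both classes. Without neonatal replicate 3 the forebrain difference turned from 0.333 to -1, and without adult replicate 1 to -1.17, so its sign rests on single libraries. Lists kept to genes with a narrower domain gave 0, 6 and 0 against 5, 2 and 0 of 13 forebrain genes, and 1, 3 and 0 against 2, 1 and 2 of 11 hindbrain or cord genes. Of the 11 genes of other tissues, 0, 4 and 0 had a promoter peak in the neonatal and 4, 2 and 2 in the adult libraries.

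The families differed in where their peaks fell. Among the Dlx genes, of which Dlx1, Dlx2, Dlx5 and Dlx6 specify interneurons of the ventral forebrain and Dlx3 and Dlx4 act mainly in other tissues, 0, 0 and 0 of 6 had a promoter peak in neonatal and 3, 1 and 0 in adult libraries: Dlx2 in adult replicates 1 and 2, and Dlx4 and Dlx6 in adult replicate 1. Emx1 and Emx2, dorsal forebrain factors, both had one in neonatal replicate 2, and a single adult library had Emx1 and another Emx2. Otx1 had one in neonatal replicate 2 alone, and Otx2, a factor of the anterior brain, had none.
Among the Lhx genes, 1 of 8, Lhx2, had a promoter peak in neonatal replicate 2 and adult replicate 1, and Lhx4 had one in adult replicate 3. Pax6, a factor of dorsal progenitors and the eye, was the 1 Pax gene of 9 with a promoter peak, and it was missed in neonatal replicate 3. Of the 6 sine oculis genes, 0, 4 and 0 had one in neonatal and 4, 2 and 2 in adult libraries, with Six4 and Six5 in all adult libraries and neonatal replicate 2, and Six3 in neonatal replicate 2 and adult replicate 1. In the Irx family the counts were 1, 4 and 0 of 6 in neonatal and 3, 2 and 2 in adult libraries, and Msx1 was the only Msx gene with a promoter peak, in neonatal replicate 2 and adult replicate 1.

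**Figure D2:**
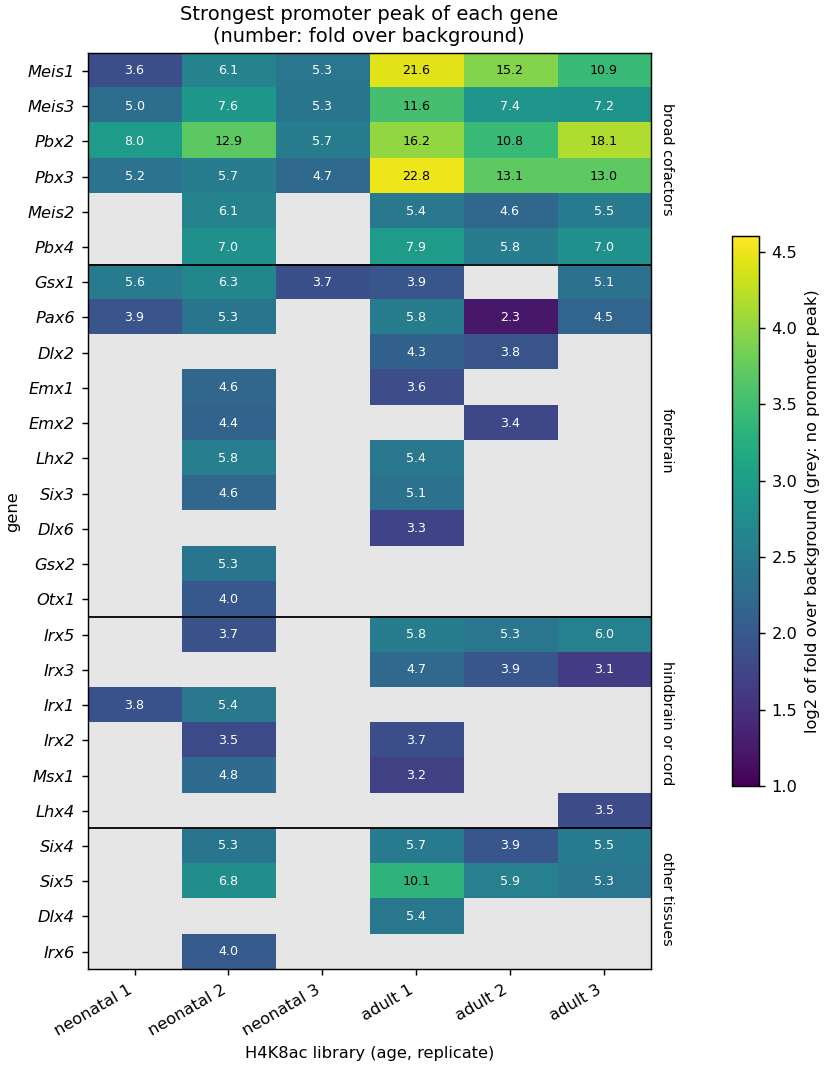
Strongest promoter peak of members that had any, with libraries in columns and genes in rows grouped by class. Numbers give the authors' fold over background, colour gives its log2, and grey means no promoter peak. Filled cells run across all 6 columns for Meis1, Meis3, Pbx2 and Pbx3, and the forebrain and hindbrain rows are filled mainly in neonatal 2 and adult 1.

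No promoter peak was found in any library for 23 members: Dlx1, Dlx3, Dlx5, Irx4, Lhx1, Lhx3, Lhx5, Lhx6, Lhx8, Lhx9, Msx2, Msx3, Otx2, Pax1, Pax2, Pax3, Pax4, Pax5, Pax7, Pax8, Pax9, Six2 and Six6. They include the ventral forebrain factors Dlx1, Dlx5, Lhx6 and Lhx8, the eye and forebrain factor Six6, the midbrain and hindbrain factors Pax2, Pax5 and Pax8, and the dorsal neural tube factors Pax3 and Pax7. For 19 of the 23 no library had a peak in the gene, within 3000 bp of it, or assigned to it. The other 4 were Msx2, Msx3 and Six2, which had assigned peaks outside promoters, and Pax5, a long gene in which 2, 2 and 0 peaks in neonatal and 2, 1 and 1 in adult libraries were assigned to other transcripts. Exactly 1 library held the promoter peak of Dlx4, Dlx6, Gsx2, Irx6, Lhx4 and Otx1. The shares of all protein-coding genes with no promoter peak, no peak at all or a promoter peak in 1 library were not computed. These counts therefore cannot be called high or low.

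The age patterns were set against those of all genes. Irx3, a factor of the hindbrain and cord, was the only member whose promoter peak occurred in each adult library and was missing from each neonatal library, 1 of 31 members with a peak (3.23%), where 9.6% of all 23433 genes had this pattern. Its folds over background were 4.7, 3.91 and 3.13 in the adult libraries. Neonatal replicate 2 had a peak within 3000 bp of the Irx3 start that was assigned to the antisense transcript Irx3os, so by position alone Irx3 loses the pattern and the count is 0. The reverse pattern was found in 0 members, where 0.209% of all genes did. Without neonatal replicate 2 the adult pattern held for 7 members, among them Irx3, Irx5, Meis2, Pbx4, Six4 and Six5 (22.6% of 31), against 28.7% of all genes, and without adult replicate 3 for 2. Without neonatal replicate 3 the neonatal pattern held for 1 member, Irx1. The shares of all genes without adult replicate 3 or neonatal replicate 3 were not computed, so these counts cannot be called high or low.

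List length was then made equal by taking the 7353 strongest peaks of every library, the length of the shortest list. The members with a promoter peak became 6, 2 and 5 in the neonatal and 4, 3 and 3 in the adult libraries, and the difference between the means turned from 5 to -1. No member was in all 3 libraries of an age and none of the other, where 1.74% of all genes were adult-only and 1.94% neonatal-only. Pbx2 was the 1 member left in all 6 libraries. Meis1, Pbx2 and Pbx3 remained in all 3 adult libraries, and Meis3 and Pbx2 in all 3 neonatal. Among the forebrain genes 2, 0 and 1 were left in neonatal libraries (Gsx1 in replicates 1 and 3, Pax6 in replicate 1) and none in the adult, and no hindbrain or cord gene kept a promoter peak in any library. Outside promoters, Msx3, a factor of the dorsal cord, kept peaks in all 3 neonatal libraries (mean 0.528 kb) and in no adult library (exact permutation p = 0.1). Its strongest adult peaks ranked 14167, 8234 and 11740 in their lists, past this cut. Over the full lists its mean coverage was 0.661 kb in neonatal and 1.08 kb in adult libraries, with overlap. The share of all genes with this order at equal lists was not computed. Irx6 and Gsx2 kept peaks in 2 neonatal libraries each.
Gsx1 and Pax6 were thus the only members outside the cofactor class with a promoter peak among these strongest peaks. At 31189 peaks, the length of neonatal replicate 2, that library had 23 members and adult replicates 1, 2 and 3 had 13, 9 and 11, while the genes with a promoter peak numbered 13700 and 12490, 11934 and 12332. Neonatal replicate 2 was a single library with this depth of list, so the comparison has no replicate.

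**Figure D3:**
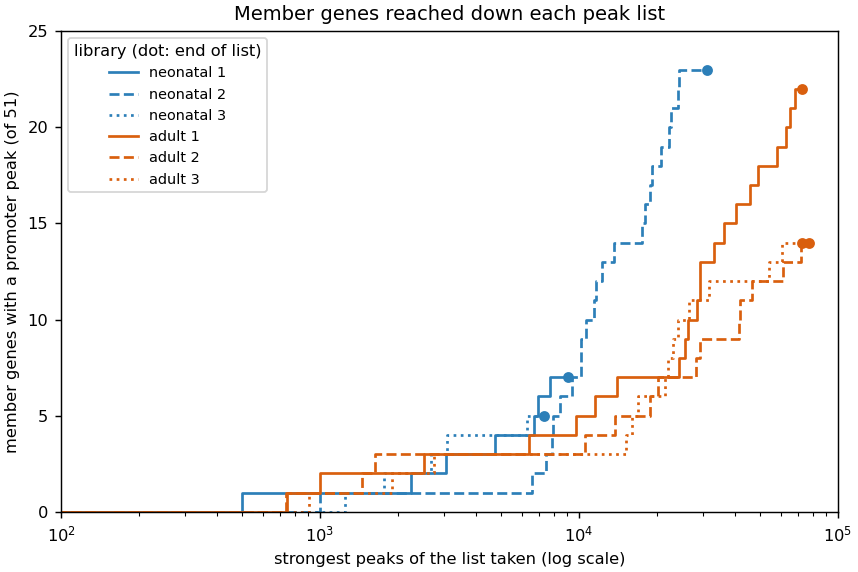
Number of members with a promoter peak (vertical axis) among the strongest peaks of each list (horizontal axis, log scale), one line per library, neonatal in blue and adult in orange, with a dot at the end of each list. All lines stay at 6 or below up to 7353 peaks, after which neonatal 2 rises to 23 within its 31189 peaks and adult 1 to 22 at 72278.

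The widest mean coverage was at Meis1, Gsx1 and Pbx2 in the neonatal and at Meis1, Pbx3 and Pbx2 in the adult libraries. Meis1, a TALE cofactor expressed in many progenitors, had promoter folds of 3.65, 6.11 and 5.31 in the neonatal and 21.6, 15.2 and 10.9 in the adult libraries, so each adult value was above each neonatal value. Folds come from lists called separately and are given as descriptions within each list. Its assigned peaks covered 0.802, 2.11 and 0.354 kb in neonatal and 4.39, 4.39 and 6.32 kb in adult libraries, means of 1.09 ± 0.914 and 5.03 ± 1.12 kb (SD, n = 3 each; exact permutation p = 0.1, two-sided and the lowest value open to 3 against 3 libraries). The ages did not overlap, and at equal numbers of peaks the means were 0.699 and 2.33 kb.
Pbx3, a partner of Meis and Hox proteins, had promoter folds of 5.16, 5.72 and 4.69 in neonatal and 22.8, 13.1 and 13 in adult libraries. Its peaks covered 0.438, 1.4 and 0.309 kb in neonatal and 3.02, 3.69 and 3.65 kb in adult libraries, means of 0.716 ± 0.597 and 3.46 ± 0.373 kb (SD, n = 3 each; exact permutation p = 0.1). Here too the ages were separate, and the adult libraries lay close together.
Pbx2, a broadly expressed member of the same family, had promoter folds of 7.97, 12.9 and 5.71 in neonatal and 16.2, 10.8 and 18.1 in adult libraries, which overlapped. Its peaks covered 0.816, 1.48 and 0.383 kb in neonatal and 1.59, 1.86 and 2.38 kb in adult libraries (exact permutation p = 0.1). Meis3 had promoter folds of 4.95, 7.6 and 5.3 in neonatal and 11.6, 7.36 and 7.25 in adult libraries, and its covered length overlapped between the ages. Neonatal replicate 2 had the widest coverage of the neonatal libraries at each of these 4 genes.

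In all, 8 of the 31 members with a peak (25.8%) had more covered bases in every adult than in every neonatal library: Irx3, Irx5, Meis1, Meis2, Pbx2, Pbx3, Pbx4 and Six5. Among all 23433 genes 60% did. For Irx3 this order rests on the assignment of peaks. Peaks in Irx3 and 3000 bp around it, whatever their assigned gene, covered 0, 0.636 and 0 kb in neonatal libraries. In adult libraries they covered 0.305, 0.448 and 0.277 kb, so by position the ages of Irx3 overlapped. Gsx2, a ventral forebrain factor, was the 1 member (3.23%) with the reverse order, found in 0.303% of all genes, and the other 22 members overlapped. Irx5, a factor of the posterior neural tube, covered 0, 0.482 and 0 kb in neonatal and 1.17, 1.4 and 2.14 kb in adult libraries (exact permutation p = 0.1). Six5 covered 0, 0.673 and 0 kb in neonatal and 1.36, 1.2 and 1.29 kb in adult libraries (exact permutation p = 0.1). Both genes are named here because their ages were separate, which fixes this p, so it adds nothing to that order. In both genes the 2 short neonatal lists had no peak at all. Six4, by contrast, covered 1.35 kb in neonatal replicate 2 and 1.31, 1.19 and 1.3 kb in the adult libraries, so that its ages overlapped through that library. Among the strongest 7353 peaks of each library, no peak of Irx3, Irx5, Meis2, Pbx4 or Six5 was left at either age, and the Gsx2 means of 0.132 and 0 kb came from libraries that overlapped.
Several members of the forebrain class had their widest coverage in neonatal replicate 2. So did members of other classes, such as Irx1, Irx6 and Msx1, with 0.966, 1.4 and 0.901 kb in that library. Otx1 covered 1.43 kb there and 0 kb in the other 5 libraries. Emx2 covered 1.14 kb there, 0.144 kb in adult replicate 2 and 0 kb elsewhere, and Lhx2 covered 1.4 kb there, 0.456 kb in adult replicate 1 and 0 kb elsewhere. Pax6 covered 0.268, 0.517 and 0 kb in neonatal and 0.85, 0.207 and 0.456 kb in adult libraries, with overlap (exact permutation p = 0.5).

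**Figure D4:**
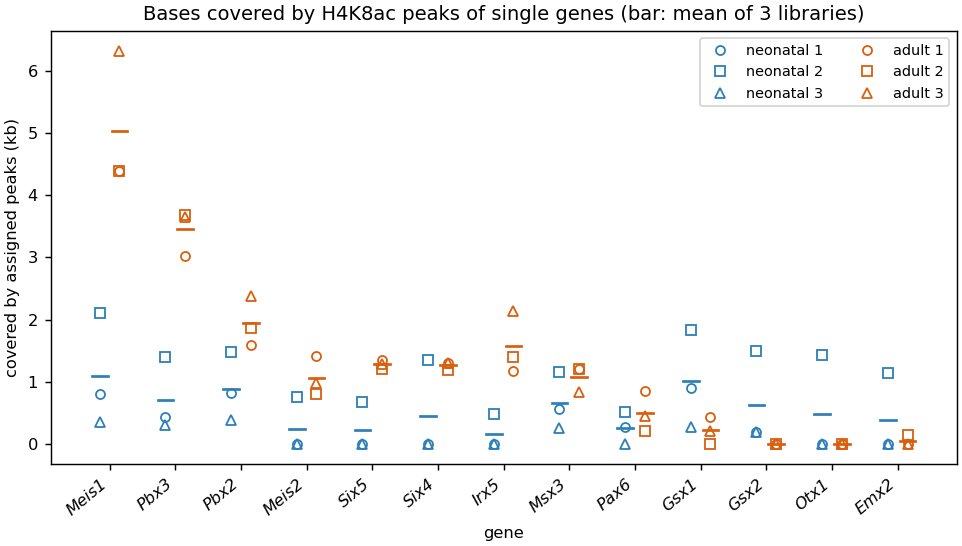
Bases covered by assigned H4K8ac peaks (vertical axis, kb) for 13 members (horizontal axis), one symbol per library and a bar at the mean of 3 libraries, neonatal in blue and adult in orange. Adult symbols lie above neonatal ones for Meis1, Pbx3, Pbx2, Meis2, Six5 and Irx5, and neonatal above adult for Gsx2, while Otx1 and Emx2 rise through neonatal 2.

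The Gsx genes, factors of the ventral forebrain progenitors that also give rise to OPCs, were the 2 members with negative values in the authors' deposited table. Gsx1 (chr5:147188696-147190947) had promoter folds of 5.64, 6.26 and 3.67 in the neonatal libraries, 3.89 and 5.12 in adult replicates 1 and 3, and no peak in adult replicate 2. Its peaks covered 0.907, 1.84 and 0.28 kb in neonatal and 0.442, 0 and 0.218 kb in adult libraries, means of 1.01 ± 0.783 and 0.22 ± 0.221 kb (SD, n = 3 each; exact permutation p = 0.2), and the ages overlapped. In the authors' deposited table of differential sites, the site at chr5:147188156-147188555, before the Gsx1 start and partly within the promoter printed above, had a log2 fold change of -1.96 (adjusted p = 0.0374, DiffBind).
Gsx2 (chr5:75075601-75077893) had a promoter peak in neonatal replicate 2 alone. Its assigned peaks covered 0.198, 1.5 and 0.198 kb in the neonatal libraries and 0 kb in all 3 adult libraries (exact permutation p = 0.1). Without neonatal replicate 2 the difference, adult minus neonatal mean, changed from -0.634 to -0.198 kb for Gsx2 and from -0.788 to -0.374 kb for Gsx1. The peak shared by the 3 neonatal libraries lay at chr5:75067170-75067695, between Chic2 and Gsx2 and 7.91 kb before Gsx2. In the authors' deposited table the site there, chr5:75067310-75067709, had a log2 fold change of -2.58 (adjusted p = 0.000634, DiffBind). It is the 1 member region of 93 (1.08%) present in each neonatal library and missing from each adult library, where 0.0398% of 98027 merged regions were.
The region lies 83.6 kb before the start of Pdgfra, the gene whose reporter was used for sorting. Pdgfra itself had a promoter peak in all 6 libraries, and its promoter site had a log2 fold change of -1.23 in the authors' deposited table (adjusted p = 0.027, DiffBind). Whether the region acts on Gsx2, Pdgfra or another gene was not tested.

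The authors' deposited table lists 43888 sites with an adjusted p-value under 0.05, of which 43634 had a positive log2 fold change, read here as higher in adult, and 254 a negative one. Its sites assigned to members numbered 20, of which 18 were positive. Promoter sites higher in adult were listed in the authors' deposited table for 9 of the 28 members with a promoter peak (32.1%), against 64.4% of 18548 genes with a promoter peak. Gsx1 was the 1 member (3.57%) with a promoter site higher in neonatal cells there, against 0.728% of those genes. All 7 cofactors were among the 9, and of the other 21 members with a promoter peak 2 were, Irx5 and Six5. At the site of smallest p in each gene, the median promoter value in the authors' deposited table was 1.59 over members and 1.77 over the 12069 genes with such a site.
The largest member value assigned to the gene in the authors' deposited table was 3.27 at Six5 (chr7:19093398-19093797; adjusted p = 0.000953, DiffBind), before its start and within the neighbouring gene Dmpk, so that the site cannot be given to Six5 by position alone. The Irx5 promoter site at chr8:92356696-92357095, before its start, had a value of 2.42 in the authors' deposited table. The smallest positive values in the authors' deposited table included 0.91 at Meis3 and 1.11 at a region 8.51 kb before Msx3. Meis1 and Pbx3 had promoter values of 1.86 (adjusted p = 4.21e-06) and 1.96 (adjusted p = 3.61e-06) at sites with a peak in all 6 libraries in the authors' deposited table (DiffBind), so at these promoters peaks were called at both ages.

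**Figure D5:**
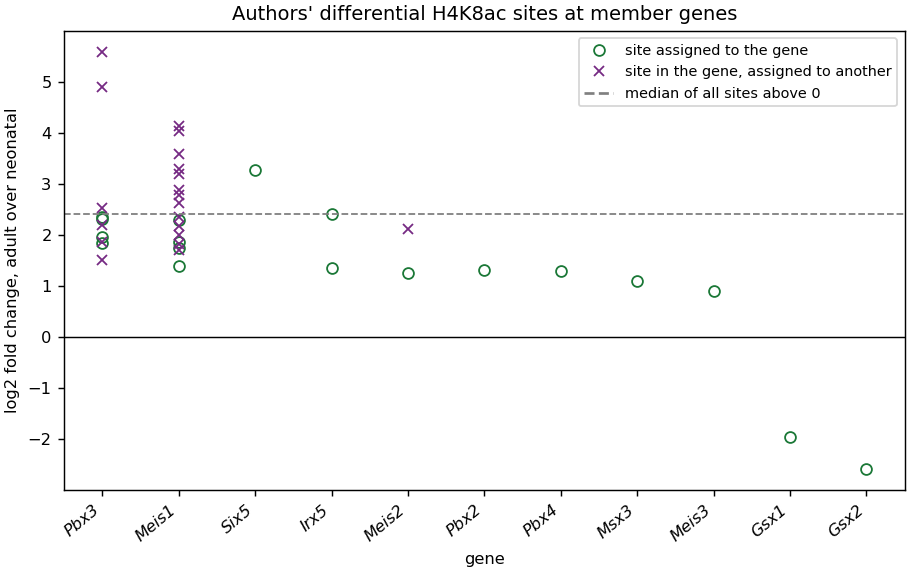
The authors' log2 fold change, adult over neonatal (vertical axis), of differential sites at 11 members (horizontal axis). Circles are sites assigned to the gene, crosses are sites inside it assigned to another transcript, and the dashed line is the median of 2.42 over all positive sites. Every site lies above 0 except those of Gsx1 and Gsx2, and the highest crosses are in Pbx3 and Meis1.

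Outside promoters, members had 3, 18 and 3 peaks in the neonatal and 10, 12 and 9 in the adult libraries. Promoters held 76.9%, 71.4% and 62.5% of the members' peaks in neonatal and 78.3%, 68.4% and 75.7% in adult libraries. Over all peaks the promoter shares were 85.2%, 67.5% and 88.8% in neonatal and 43.9%, 43.1% and 40.4% in adult libraries. Peaks outside promoters were thus a larger part of the adult lists in general, but not of the members' adult peaks. The forebrain genes had 1, 8 and 1 of these in the neonatal libraries and 0 in each adult library, the hindbrain or cord genes 1, 5 and 1 and then 4, 4 and 3, and the cofactors 1, 3 and 0 and then 5, 6 and 4. The forebrain peaks in neonatal libraries 1 and 3 were the Gsx2 region. How often other sets of genes show the order of the forebrain class was not computed. Merged over libraries, the members' peaks formed 93 regions, 64 at promoters and 29 elsewhere. A single library held 54 of the 93, neonatal replicate 2 in 29 cases, and 4 regions were present in all 6 libraries. The same shares over all merged regions were not computed, so these counts cannot be called high or low. Of the 93 regions, 8 (8.6%) were in each adult library and missing from each neonatal library, against 20.4% of all merged regions.
Recurrent regions outside promoters were few. They included 1 at 50.1 kb from Irx5 (chr8:92407868-92408990) in 1 neonatal and 3 adult libraries, and 1 before Meis1 (chr11:19026487-19028088) in 2 neonatal and 3 adult libraries. A region before Msx3 (chr7:140057602-140058714), which lies between Msx3 and Caly, was present in 2 neonatal and 3 adult libraries although Msx3 itself had no promoter peak. Pbx3 had 2 intronic regions (chr2:34355908-34356553 and chr2:34359481-34360877) in the 3 adult libraries alone.

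Long genes of the cofactor class held many peaks that the annotation gave to transcripts inside them. Within Meis1 and 3000 bp around it, 1, 5 and 1 peaks lay in the neonatal and 23, 23 and 27 in the adult libraries, of which 19, 19 and 23 adult peaks were assigned to other transcripts. They covered 0.356, 1.49 and 0.354 kb in neonatal and 10.9, 11.5 and 17.2 kb in adult libraries, means of 0.733 ± 0.655 and 13.2 ± 3.48 kb (SD, n = 3 each; exact permutation p = 0.1). In the authors' deposited table, sites numbering 17 lay in or were assigned to Meis1, 13 of them assigned to transcripts such as 2610001A08Rik, with log2 fold changes from 1.39 to 4.15 and a median of 2.35.
Within Pbx3 the peaks covered 0.438, 1.69 and 0.309 kb in neonatal and 5.24, 6.79 and 7.81 kb in adult libraries (exact permutation p = 0.1), and 10 sites of the authors' deposited table lay there, the highest at 5.59 and 4.91 in introns. Within Meis2 the covered length was 0, 0.935 and 0 kb in neonatal and 2.74, 2.28 and 2.36 kb in adult libraries (exact permutation p = 0.1). All 3 genes were separate between the ages on this measure, with neonatal replicate 2 the highest neonatal library each time. The share of all genes separate on this measure was not computed. On assigned peaks, 60% of 23433 genes covered more in every adult than in every neonatal library, so such an order is common. Pax5, also a long gene, showed no such separation, with 0.507, 1.25 and 0 kb in neonatal and 0.842, 0.297 and 0.497 kb in adult libraries.

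Genes outside these families that act in the same patterning steps were read in the same way. Of 17 forebrain regulators, 4, 7 and 4 had a promoter peak in the neonatal and 7, 5 and 6 in the adult libraries, and Nr2f1 and Olig2 had one in all 6. In the authors' deposited table Olig2 was the 1 of the 17 that had a promoter site higher in adult (1.49) and Nr2f2, a nuclear receptor of the caudal and ventral forebrain, had one higher in neonatal cells (-2.18, adjusted p = 0.00664, DiffBind). Of 17 midbrain, hindbrain or cord regulators, 1, 2 and 0 had a promoter peak in the neonatal and 3, 2 and 2 in the adult libraries, and 14 had none in any library. The 3 with a promoter peak were En2, Phox2a and Lmx1b. En2, a midbrain and hindbrain factor, had promoter folds of 27.8, 15.5 and 17.7 in the adult libraries, 5.31 in neonatal replicate 1 and a value of 3.27 in the authors' deposited table (adjusted p = 7.84e-14, DiffBind). Phox2a, a factor of hindbrain neurons, had promoter folds of 7.99, 5.73 and 3.58 in the adult libraries and 6.84 in neonatal replicate 2, and Lmx1b had 1 of 4.66 in adult replicate 1 and 1 of 3.55 in neonatal replicate 2. Of 13 patterning signals and their transducers, 3, 6 and 3 had a promoter peak in the neonatal and 6, 4 and 6 in the adult libraries. In the authors' deposited table, 3 of these 13 had a promoter site higher in adult (Gli1, Gli2 and Ptch1) and 2 had a site higher in neonatal cells (Bmp7 at -1.15 and Smo at -1.20). Smo transduces the same Hedgehog signal as Gli1, Gli2 and Ptch1, so listed promoter sites of this pathway were found in both directions. The neonatal direction rests on Smo alone. Gli3 had its 1 promoter peak in neonatal replicate 2 and no promoter site in the authors' deposited table. The shares of all genes with a promoter peak that had such sites in the authors' deposited table were 64.4% and 0.728%. The counts above are over whole lists, in which 9 of the 17 forebrain regulators and 5 of the 13 signals had no promoter peak in any library.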

How the data were processed

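H4K8ac was profiled by ChIP-seq in 3 neonatal and 3 adult libraries of sorted OPCs. Per the submitters' processing notes, the tools were Trim Galore, Bowtie2 2.4.5, SAMtools, deepTools, MACS2, DiffBind and ChIPseeker on GRCm38. Their parameters, and whether input was used, are not given in the sources used here. Each library has a peak list of its own. The columns of the lists are, per the file headers, a score, the fold over background as a linear ratio, p-values and q-values on a −log10 scale, and the nearest gene with its distance. The authors' deposited table of sites that differ between the ages holds p-values, adjusted p-values and log2 fold changes, and names no direction. Its positive sites overlapped adult peaks (85% to 96.7% by library) more than neonatal ones (10.3% to 27.8%), and negative sites the reverse, so positive was read as higher in adult. A site took the class and gene of the peak sharing most bases with it.

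Member genes were matched by symbol, covered bases were the union of a gene's peaks, and peaks overlapping by at least 1 bp were merged into regions. The ages were compared by exact permutation over libraries (two-sided), with a smallest p of 0.1. Any gene whose ages are fully separate gets this value, so it is not evidence beyond the separation itself. Equal lists ranked peaks by p-value. Python 3.11.15, numpy 2.4.6, pandas 2.3.3, scipy 1.17.1 and matplotlib 3.10.9 were used, and the functions were tested on simulated data. Promoter sequences come from RefSeq (GRCm38.p6), where 37 of 51 members matched. Coordinates count from 1.

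The members and lists were chosen with earlier results of these data known. Genes named with values were members of the forebrain and hindbrain or cord classes with a promoter peak at a single age, the 3 with the widest coverage at each age, the 5 largest and 5 smallest values and every negative value in the authors' table, and in each family the members with most and fewest promoter libraries. Other members, the peaks inside long genes and the regulators named outside the families were singled out after their values were seen. A few genes are counted in the totals but not reported here by name or value.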

Additional observations from a re-analysis of the deposited data

How the results depend on the processing

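Of 76 alternative values of the main comparisons, 8 changed sign, 6 moved and 62 did neither, that is, they moved by less than 1 SD between libraries or, for counts, by at most 1.5 times. These 62 include differences that fell to 0: the forebrain class at a q-value under 0.005 and the hindbrain or cord class at equal numbers of peaks. With the 7353 strongest peaks of every library the difference in members with a promoter peak, adult minus neonatal, turned from 5 to -1, that of the forebrain class from 0.333 to -1 and that of peaks outside promoters from 2.33 to -3. The log2 ratio of covered kb, adult over neonatal, went from 1.83 to 0.89, the adult-only count from 1 to 0, and Msx3 and Pax6 covered fewer kb in adult cells (-0.528 and -0.0893 kb). By position the adult-only count was also 0, and at an adjusted p under 0.005 no member promoter was higher in neonatal cells in the authors' table (0 against 1). Leaving out each library in turn gave differences of 1.67 to 10.7 members, -1.17 to 2.5 forebrain genes, 0.5 to 2.5 hindbrain or cord genes and -0.167 to 7.33 peaks outside promoters. It gave 1 to 7 adult-only and 0 to 1 neonatal-only members, and log2 ratios of covered kb of 1.08 to 2.83. The forebrain sign turned without neonatal replicate 1, neonatal replicate 3 or adult replicate 1 (-0.5, -1 and -1.17), and that of peaks outside promoters without neonatal replicate 1 or 3 (-0.167 each). The causes were not tested, except that equal lists hold fewer peaks by construction. Counting peaks by gene position, chosen after seeing the data, raised the Meis1 difference from 3.94 to 12.5 kb.

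Replicate numbers are shared between the ages, but libraries of equal number did not deviate together over 23433 genes (correlations of -0.059, 0.015 and 0.081). With the replicate block the difference in members was 5 and the log2 ratio 1.83, as without it, with within-pair differences from -9 to 15 members. An exact sign-flip test over 3 pairs cannot go below 0.25. Read depth was not known, so a missing peak in a short list does not show a missing mark.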
